A study of Mus musculus with 10 samples.

Results

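The comparison set 6 RNA-seq libraries of mouse embryonic stem cells that carry a converted Taf1 allele against the single library of the wild-type line MK6. The 6 libraries were those whose titles name a converted line, out of 10 samples in the series. The pre-conversion stem cell library and the striatal libraries were not analysed here. There were 3 converted lines with 2 libraries each, called conv-dSVA_D, conv-dSVA_F and conv-dSVA_F&D. The labels give all of them loxP in intron 24 of Taf1, pSpCas9[null], pSpCas9GFP[null], LPSwapinRed_pUC19, a segment of human TAF1 origin written Taf1_humanization_hTAF1~mousified and marked converted, and the Cre plasmid entry pCAGiCre[null]. The lines differ in the deletion of SVA retrotransposon sequence, written dSVA2 for conv-dSVA_D, SVAdel for conv-dSVA_F and both for conv-dSVA_F&D. MK6 is labelled wild type. All lines are C57BL/6J stem cells grown on gelatin in serum with LIF and 2 inhibitors, CHIR99021 against GSK3 and PD0325901 against MEK. Each genotype has 1 line name and no clone is named, so the allele, the line and the editing steps cannot be told apart. The wild type is 1 library, so its own spread is unknown, and nothing says that replicates came from separate cultures.

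TAF1 is the largest subunit of TFIID, the general transcription factor that recognises core promoters and helps to place RNA polymerase II at the start of genes. In humans, an SVA retrotransposon inserted in a TAF1 intron is carried by people with X-linked dystonia-parkinsonism. Mouse stem cell cultures in this medium are largely naive, and a small share of cells passes at any time through a two-cell-like state with transcripts of the early embryo.

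Levels are normalized counts, meaning reads per gene divided by 1 size factor per library. The libraries held 16588467 to 26562418 reads assigned to genes in the converted lines and 21274792 in the wild-type library. Any gene listed at 0 could have had up to 3 reads in a library, or 2.45 to 4.18 normalized counts, which covers counting error only. All 10 markers of stem cell identity were above 0 in every one of the 7 libraries. Their summed level was 121099 to 147411 in the converted libraries and 142392 in the wild type. Differences are log2 of the normalized count plus 1, converted minus wild type, ± the standard error, and the added 1 understates the change of low genes. They come from limma, which set the average of the 3 converted group means against the wild type and took the wild-type library to vary like the converted ones.

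Some sequences of genes that lay below the wild type in all 6 converted libraries are shown first, because they belong to small nucleolar RNAs and two-cell-like genes, where most tested members lay below the wild type. Snora73b and Snora15 are small nucleolar RNAs of the H/ACA class, which guide pseudouridine formation or ribosomal RNA processing. Their GENCODE M21 transcripts lie at chr4:132352322-132352526 on the minus strand and chr5:129794546-129794676 on the plus strand of GRCm38. They are printed 5′ to 3′ as DNA letters, with the ACA box that stands 3 bases before the 3′ end in capitals.
Snora73b: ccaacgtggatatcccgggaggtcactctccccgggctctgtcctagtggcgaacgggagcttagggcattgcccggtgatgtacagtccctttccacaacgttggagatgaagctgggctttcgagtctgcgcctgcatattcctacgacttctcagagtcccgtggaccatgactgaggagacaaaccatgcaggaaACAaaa
Snora15: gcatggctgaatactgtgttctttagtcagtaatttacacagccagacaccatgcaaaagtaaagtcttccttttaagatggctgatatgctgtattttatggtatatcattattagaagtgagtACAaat
Zscan4c and Zscan4d are neighbouring copies of a zinc-finger gene family that marks the two-cell-like state. The 250 bases before their RefSeq starts on GRCm38.p6 lie at chr7:11005495-11005744 on the plus strand and chr7:11166149-11166398 on the minus strand. Capitals mark bases that differ between the copies in the stretch where they align.
Zscan4c promoter: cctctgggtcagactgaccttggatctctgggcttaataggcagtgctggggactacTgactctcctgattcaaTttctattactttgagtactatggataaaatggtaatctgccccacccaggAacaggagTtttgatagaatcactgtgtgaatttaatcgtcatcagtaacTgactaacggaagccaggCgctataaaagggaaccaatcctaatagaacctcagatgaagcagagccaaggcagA
Zscan4d promoter: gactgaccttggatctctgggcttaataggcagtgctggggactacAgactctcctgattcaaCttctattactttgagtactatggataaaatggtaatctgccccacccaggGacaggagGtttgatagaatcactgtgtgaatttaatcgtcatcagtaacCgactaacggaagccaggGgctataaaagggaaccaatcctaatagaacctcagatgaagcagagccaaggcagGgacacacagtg
Over 239 aligned positions the 2 promoters were identical at 232, or 97.1%. These stretches lie before the RefSeq starts, and the transcripts were not compared here. Whether the copies share reads was not tested, so single Zscan4 values are uncertain between copies.

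Taf1 itself was the called gene with the smallest p. It lies at chrX:101532734-101601789 on the plus strand of GRCm38. Its level was 362 and 418 normalized counts for conv-dSVA_D, 501 and 589 for conv-dSVA_F, 1116 and 1088 for conv-dSVA_F&D and 2898 for the wild type. Even the nearest converted library stood 1.38 below the wild type on the log2 scale, and no converted pair overlapped another pair. The difference was -2.23 ± 0.17 (limma, adjusted p = 0.00177). It kept adjusted p of 0.00344 to 0.017 when any 1 converted library was left out. An exact two-sided permutation test over the 7 libraries gave p = 0.143, the smallest that 1 library against 6 allows. The sources do not say how reads from the humanized stretch were assigned, so the exons measured may not be the same in converted and wild-type cells.

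Of 15240 genes with a mean of at least 10, 2859 (18.8%) had all 6 converted libraries above the wild type and 2896 (19.0%) had all 6 below it. These 5755 genes, or 37.8% of those tested, are the background against which each gene group is read. Most lay close to the wild type, since the nearest converted library was a median of 0.20 above it or 0.18 below it on the log2 scale. All 6 libraries were at least 2-fold above the wild type at 93 genes (0.610%) and at least 2-fold below it at 127 genes (0.833%). At 4-fold these counts were 14 and 11.

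By limma at adjusted p under 0.05, 95 genes (0.623%) were higher and 80 genes (0.525%) were lower in the converted lines, and 173 of these 175 lay wholly on one side. The spread in this test came from libraries of the same line, so differences between the converted lines did not enter it. With 1 mean for all 6 converted libraries, where the line differences enter the spread, 0 genes were called. With no variance trend 1 gene was called. The 175 calls also depended on the library. Without conv-dSVA_D replicate 1, 2 genes were called, Taf1 and Eif1ad15. There were 22 without conv-dSVA_D replicate 2, 51 without conv-dSVA_F replicate 1 and 10 without conv-dSVA_F replicate 2, and 399 and 599 without conv-dSVA_F&D replicates 1 and 2. Of 33 called genes that the naming rule picked, 31 lost the call without conv-dSVA_D replicate 1, 21 without conv-dSVA_D replicate 2, 13 without conv-dSVA_F replicate 1 and 28 without conv-dSVA_F replicate 2, with adjusted p up to 0.134. None of the 33 lost it without either conv-dSVA_F&D library. In limma, 2849 of the 15240 genes had an unadjusted p under 0.05. On read counts of the same genes, edgeR called 305 and DESeq2 804. Such counts within a gene list are to be read against these numbers.

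**Figure D1:**
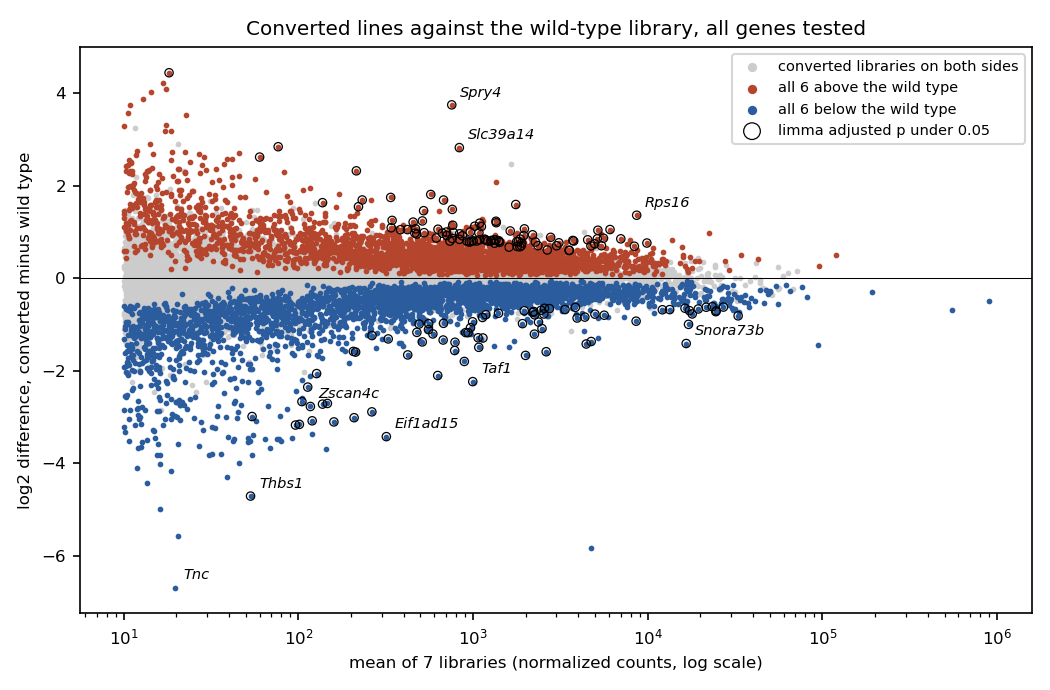
Each point is 1 of 15240 genes, with its mean over 7 libraries on a log x axis (normalized counts) and its log2 difference, converted minus wild type, on the y axis. Red and blue points have all 6 converted libraries above or below the wild type, and circles mark the 175 genes called by limma, of which 173 are red or blue.

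The genes that stood farthest above the wild type included signalling regulators, a zinc and iron transporter and transcription factors. Spry4, which damps signalling from receptor tyrosine kinases through ERK, had 1811 and 803 normalized counts for conv-dSVA_D, 1025 and 1055 for conv-dSVA_F, 148 and 393 for conv-dSVA_F&D and 49.1 for the wild type. Its nearest library was conv-dSVA_F&D replicate 1, at 1.57 above the wild type on the log2 scale. It was higher by 3.75 ± 0.48 (limma, adjusted p = 0.02, and 0.0719 without conv-dSVA_D replicate 1). Slc39a14, a zinc and iron importer at chr14:70303469-70351425 on the minus strand of GRCm38, had 1632 and 887 for conv-dSVA_D, 1104 and 1151 for conv-dSVA_F, 322 and 625 for conv-dSVA_F&D and 119 for the wild type. As for Spry4, both conv-dSVA_F&D libraries lay below the other converted libraries and above the wild type. The difference was 2.82 ± 0.35 (limma, adjusted p = 0.0183, and 0.0719 without conv-dSVA_D replicate 1).

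Sall1, Tnrc18 and Wipf1 also stood above the wild type, and limma's F test called no difference among the converted lines for them. Sall1, a zinc-finger transcriptional repressor at chr8:89027235-89044162 on the minus strand of GRCm38, had 735 and 909 normalized counts for conv-dSVA_D, 943 and 791 for conv-dSVA_F, 871 and 780 for conv-dSVA_F&D and 297 for the wild type. The converted libraries overlapped one another and none came near the wild type. It was higher by 1.49 ± 0.18 (limma, adjusted p = 0.0183). Tnrc18, a chromatin-associated protein gene, ranged from 1065 to 1318 in the converted libraries, against 517 in the wild type. It was higher by 1.19 ± 0.17 (limma, adjusted p = 0.0237). Wipf1, an actin regulator of the WASP pathway, ranged from 123 to 172, against 48.0 in the wild type (1.63 ± 0.32, limma, adjusted p = 0.0486). Without conv-dSVA_D replicate 1 the adjusted p was 0.0719 for Sall1, 0.088 for Tnrc18 and 0.11 for Wipf1.

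Gprc5a, an orphan receptor, ranged from 368 to 961 normalized counts in the converted libraries, against 174 in the wild type (1.81 ± 0.34, limma, adjusted p = 0.043). Zfhx3, a large homeobox transcription factor, ranged from 409 to 784, against 204 (1.46 ± 0.26, limma, adjusted p = 0.0393). Neither call held without conv-dSVA_D replicate 1, at adjusted p = 0.116 and 0.106. Gli1, Acap1 and Atp1b2 stood among the 12 named genes farthest above the wild type and did not pass the test. Gli1, the transcription factor that reads out Hedgehog signalling, had 81.5 to 228 in the converted libraries and 30.6 in the wild type (1.95 ± 0.55, limma, adjusted p = 0.106).

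Rps16, a protein of the small ribosomal subunit, stood on the other side from its family. It lies at chr7:28350652-28353155 on the plus strand of GRCm38 and had 7508 and 8164 normalized counts for conv-dSVA_D, 8815 and 10323 for conv-dSVA_F, 10105 and 11944 for conv-dSVA_F&D and 3641 for the wild type. Every converted library was more than 2-fold above the wild type, and the difference was 1.36 ± 0.14 (limma, adjusted p = 0.015, and 0.0719 without conv-dSVA_D replicate 1). Of 40 cytoplasmic ribosomal protein genes tested, Rps16 was the 1 with all 6 libraries above the wild type, 32 (80%) had all 6 below, and 7 had libraries on both sides. The median difference of the 40 was -0.47, against -0.01 over all genes tested. Rps19, Rpl10 and Rpl14 were called lower. Rps19 ranged from 20585 to 25380 in the converted libraries and stood at 36814 in the wild type (-0.70 ± 0.12, limma, adjusted p = 0.0326). All 3 lost the call without conv-dSVA_D replicate 1, at adjusted p of 0.11 to 0.13. edgeR called 15 and DESeq2 24 of the 40, against 305 and 804 of all 15240 genes. Ribosomal protein genes have many processed copies, so single values of the family are uncertain.

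**Figure D2:**
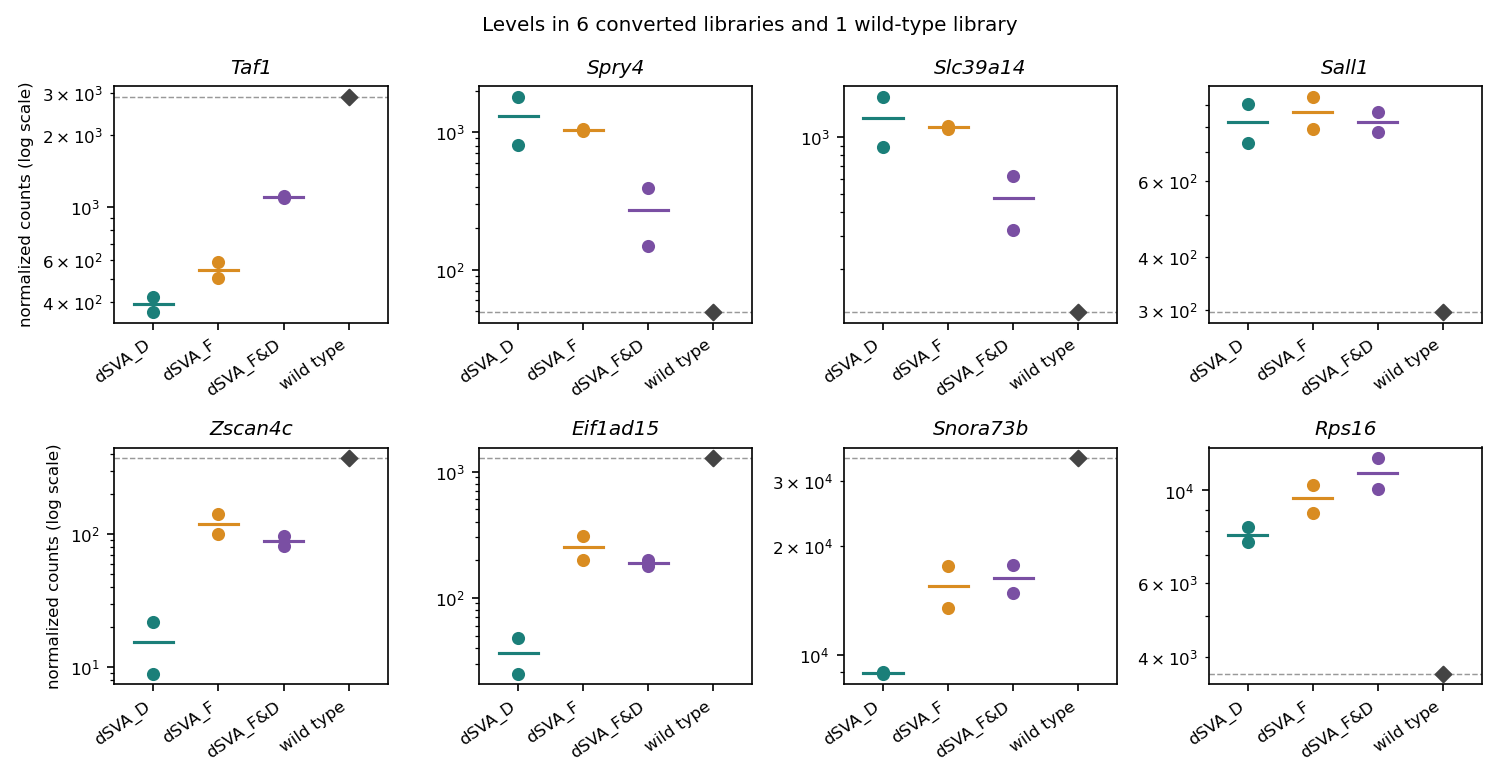
Normalized counts (log y axis) of 8 genes in the libraries of conv-dSVA_D, conv-dSVA_F and conv-dSVA_F&D (circles, with the mean of 2 as a bar) and in the wild-type library (diamond, dashed line). Spry4, Slc39a14, Sall1 and Rps16 lie above the wild type in all 6 converted libraries, and Taf1, Zscan4c, Eif1ad15 and Snora73b lie below it.

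Two-cell-like genes lay below the wild type in the converted lines. Of 20 listed genes 18 were in the table, and Usp17ld and Spz1 did not pass the filter on low values. Of 16 tested genes of this state, all 16 had every converted library below the wild type, and the median difference was -2.80. By limma 6 of the 16 were called lower, and edgeR and DESeq2 called 12 each. Zscan4c, whose promoter is printed above, had 22.1 and 8.98 normalized counts for conv-dSVA_D, 140 and 99.5 for conv-dSVA_F, 97.0 and 80.8 for conv-dSVA_F&D and 371 for the wild type. Zscan4d had 16.3 and 15.5 for conv-dSVA_D, 242 and 142 for conv-dSVA_F, 110 and 72.4 for conv-dSVA_F&D and 428 for the wild type. In both copies the conv-dSVA_D libraries were lowest and the other lines lay between them and the wild type. The differences were -2.77 ± 0.50 for Zscan4c (limma, adjusted p = 0.0399, and 0.097 without conv-dSVA_F replicate 2) and -2.71 ± 0.42 for Zscan4d (adjusted p = 0.0312, and 0.0895 without conv-dSVA_D replicate 1).

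Tmem92, a transmembrane protein gene of the same state, had 9.6 and 11.4 normalized counts for conv-dSVA_D, 175 and 102 for conv-dSVA_F, 174 and 102 for conv-dSVA_F&D and 389 for the wild type (-2.72 ± 0.46, limma, adjusted p = 0.0326, and 0.106 without conv-dSVA_D replicate 1). The Eif1ad genes, a multicopy family related to a translation initiation factor, included the largest distance below the wild type. Eif1ad15 had 25.0 and 48.2 for conv-dSVA_D, 310 and 198 for conv-dSVA_F, 199 and 178 for conv-dSVA_F&D and 1274 for the wild type. It was the farthest below of the genes with a mean of at least 100 whose names the rule allowed, with its nearest library 2.04 lower on the log2 scale. It fell by 3.42 ± 0.38 (limma, adjusted p = 0.015, and 0.0422 at most without any 1 library). Eif1ad3, Eif1ad7 and Eif1ad8 were called lower too, with differences of -3.16, -2.89 and -2.35, and lost the call without conv-dSVA_D replicate 1, at adjusted p of 0.106 to 0.125. Eif1ad15 and Eif1ad7 were not on the list of 20. In bulk samples, fewer two-cell-like cells and less RNA per such cell cannot be told apart.

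Small noncoding RNAs were also mostly below the wild type. Of 114 tested small nucleolar RNAs, 73 (64%) had all 6 converted libraries below the wild type and 1 had all 6 above, with a median difference of -0.94, and 13 were called lower by limma. Snora73b, printed above, had 8986 and 8908 normalized counts for conv-dSVA_D, 17565 and 13485 for conv-dSVA_F, 14845 and 17689 for conv-dSVA_F&D and 34720 for the wild type. The nearest converted library stood 0.97 below the wild type on the log2 scale, and conv-dSVA_D was lowest. The difference was -1.41 ± 0.16 (limma, adjusted p = 0.015, and 0.0719 without conv-dSVA_D replicate 1). Snora15 ranged from 20.9 to 118 in the converted libraries and stood at 350 in the wild type, and did not pass (-2.58 ± 0.60, limma, adjusted p = 0.0696).

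The ACA box was searched as ACANNN at the 3′ end of the annotated RNA, on its own strand. It was present in 269 of 1483 annotated small nucleolar RNAs (18.1%). Of 50 tested RNAs with it, 41 (82%) had all 6 libraries below the wild type, with a median difference of -1.23. Of 64 tested RNAs without it, 32 (50%) did, with a median of -0.80. The tested small nucleolar RNAs spanned 64 to 271 bases, and length was not held equal between those with and without the box. The part of length in this contrast was not tested. Of 31 small nuclear RNAs tested, which include spliceosomal RNAs, 12 lay wholly below and 4 were called lower. Among RNAs of the signal recognition particle, Rn7s1 had 39.4 to 110 in the converted libraries and 310 in the wild type (-2.19 ± 0.51, limma, adjusted p = 0.0696). Rn7s2 was uneven, at 221 and 108 for conv-dSVA_D, 11125 and 221 for conv-dSVA_F, 121 and 357 for conv-dSVA_F&D and 21169 for the wild type. Its difference was -5.835 ± 1.458 and did not pass.

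Together small nucleolar, small nuclear and Cajal-body RNAs took 0.401% and 0.401% of reads for conv-dSVA_D, 0.624% and 0.469% for conv-dSVA_F, 0.480% and 0.610% for conv-dSVA_F&D and 0.918% for the wild type. The 95% Wilson interval of the wild-type share was 0.914% to 0.922% and that of the highest converted share was 0.621% to 0.627%, counting error only. Every converted share lay below the wild-type share.

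The difference between converted and wild-type libraries varied with the length of a gene's annotated exons. Among 273 protein-coding genes with at most 1000 exonic bases, 3.66% had all 6 libraries above the wild type and 42.5% had all 6 below, with a median difference of -0.35. Among 2296 genes with more than 8000 exonic bases the shares were 31.8% and 8.32%, with a median of 0.15. In each of the 6 converted libraries the median was higher in every longer class than in the class before it. Base composition was examined in the same way. Genes with at most 42% GC had 8.57% above and 31.5% below, and genes with over 58% GC had 27.4% above and 9.35% below.

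**Figure D3:**
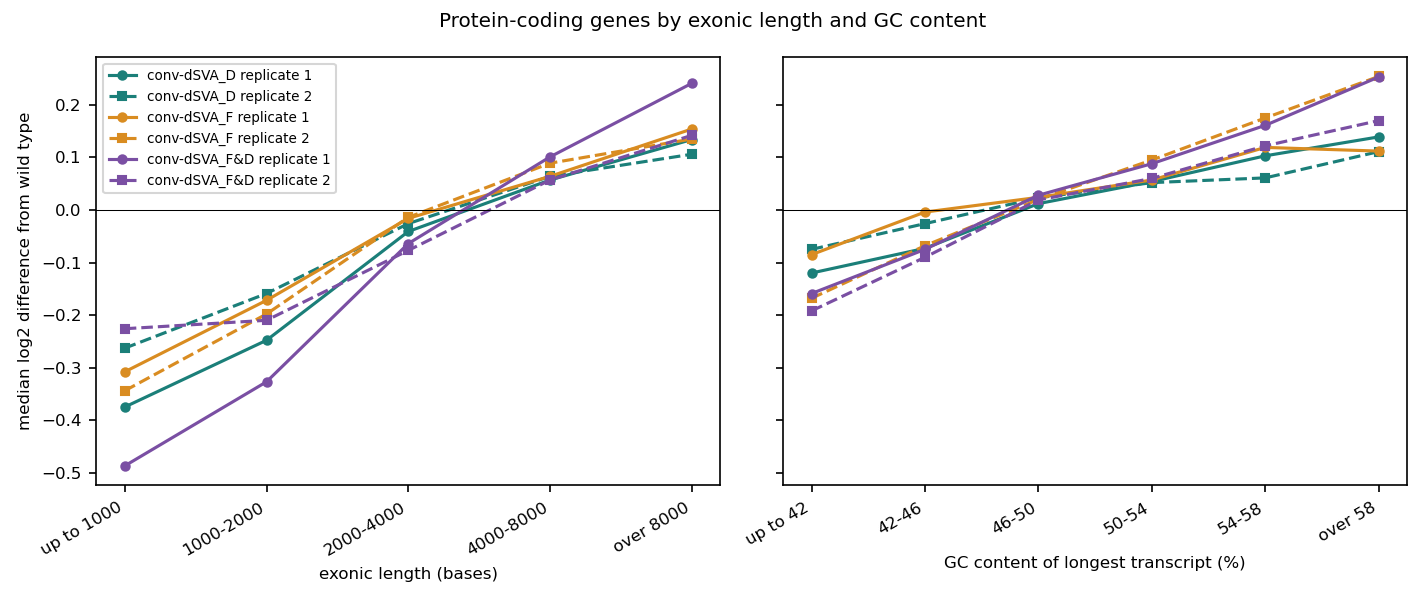
Median log2 difference from the wild type (y axis) of protein-coding genes in classes of exonic length (left, bases) and GC content (right, %), 1 line per converted library. All 6 lines run upward with length, with medians of -0.49 to -0.23 in the shortest class and 0.11 to 0.24 in the longest.

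The strength of this relation differed between libraries. Over 12693 protein-coding genes, Pearson r of the difference with log2 exonic length was 0.281 in conv-dSVA_F&D replicate 1 and 0.136 to 0.162 in the 5 other libraries, which all share the wild-type library. Length and GC content together accounted for 19.4% of the variance of the difference in conv-dSVA_F&D replicate 1 and 3.78% to 8.52% in the others. Each library's trend with length and GC content was therefore removed in an alternative chosen after seeing the data. It left 44 genes called, 27 higher and 17 lower, of which 38 were among the 175. It also left 2879 genes wholly above and 1929 wholly below, or 19.5% and 13.1% of 14746 genes. Taf1, Spry4, Slc39a14, Sall1, Rps16, Snora73b and Tpt1 stayed called, at adjusted p of 0.000547 to 0.0319.

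Of the ribosomal protein genes, 26 of 40 lay wholly below after removal, with a median of -0.25, and 1 was called lower. All 13 two-cell-like genes that have an annotated length stayed below, with a median of -2.55 and 2 called lower, while Zscan4c reached adjusted p = 0.0811 and Tmem92 0.0563. Meg3, Wipf1, Gprc5a, Tnrc18, Zfhx3, Edc4 and Rpl10l no longer passed either, at adjusted p of 0.0605 to 0.114. Ooep, an oocyte-expressed gene, had libraries on both sides of the wild type after removal, with a difference of -0.56 (adjusted p = 0.0899).

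**Figure D4:**
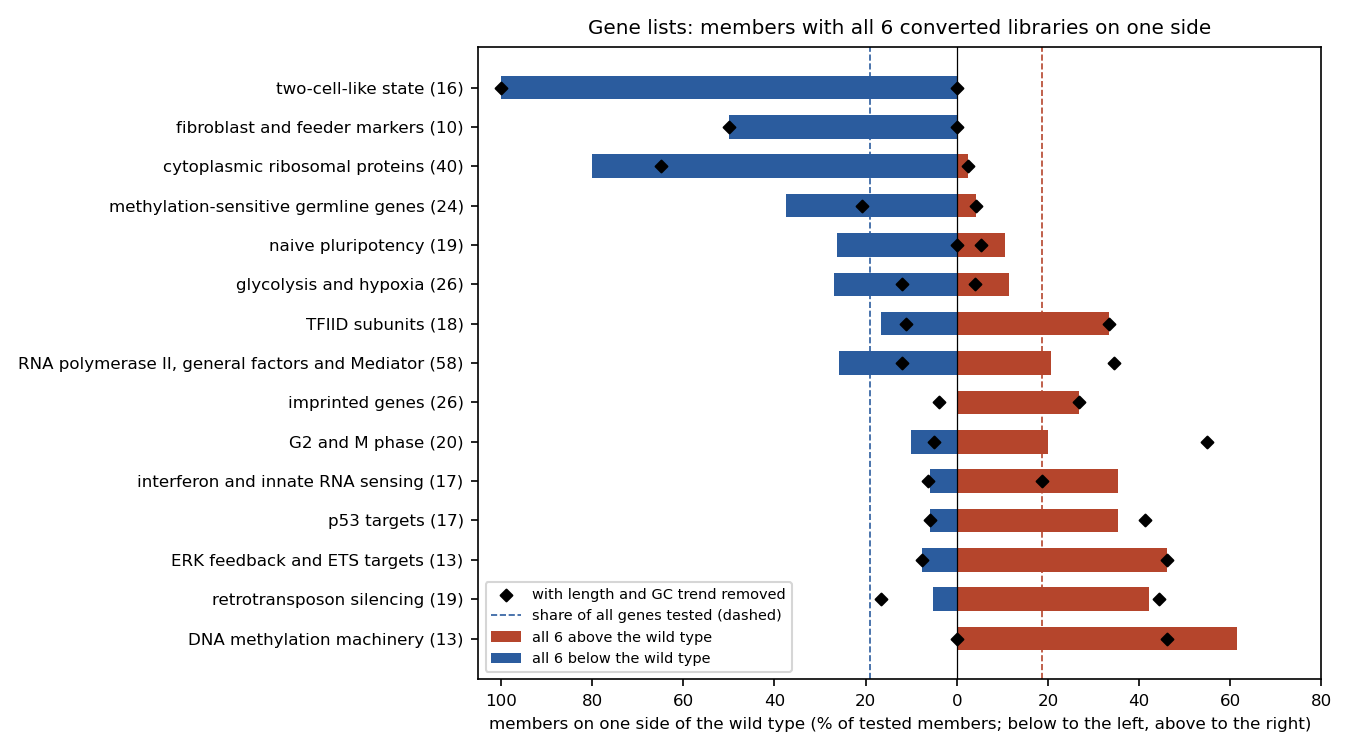
Share of each list's tested members (number in brackets) with all 6 converted libraries below the wild type (blue bars, to the left) or above it (red bars, to the right), in percent. Black diamonds give the shares with the length and GC trend removed and dashed lines the shares over all genes tested, 19.0% below and 18.8% above. The dashed lines are for the bars. For the diamonds, the shares over all genes with an annotated length were 13.1% below and 19.5% above and are not drawn.

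Other TFIID subunits differed less than Taf1. Of 18 tested TFIID genes, Taf2, Taf3, Taf4, Taf4b, Taf5 and Taf6 lay wholly above the wild type, and Taf1, Taf8 and Taf9 lay wholly below. Taf9 was low, at 6.09 to 15.6 normalized counts in the converted libraries and 18.6 in the wild type. With the length and GC trend removed, its libraries lay on both sides. None but Taf1 was called by limma or edgeR, 6 of the 17 others had an unadjusted p under 0.05 and DESeq2 called 1. Taf3, whose product binds trimethylated histone H3 at promoters, had 247 to 462 normalized counts in the converted libraries and 199 in the wild type (0.87 ± 0.24, limma, adjusted p = 0.101). Tbp, the TATA-binding subunit, had 809 to 1022 in the converted libraries and 875 in the wild type, so its converted libraries lay on both sides. Of 58 genes of RNA polymerase II, general factors and Mediator, 12 (20.7%) lay wholly above and 15 (25.9%) wholly below. Over all genes tested these shares were 18.8% and 19.0%. With the length and GC trend removed, 20 (34.5%) and 7 (12.1%) did, against 19.5% and 13.1% of all genes with an annotated length. Among 22 tested X-linked genes near Taf1, 2 (9.09%) lay above and 3 (13.6%) below, Taf1 included.

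Several regulators of receptor and growth signalling lay above the wild type. All lines were grown with a MEK inhibitor, which blocks ERK activation. Of 13 tested ERK feedback and ETS target genes, 6 (46.2%) lay wholly above and 1 wholly below, with a median of 0.44, and Spry4 was the 1 called by limma. Of the 13, 7 had an unadjusted p under 0.05, edgeR called 1 and DESeq2 5. Etv4, an ETS transcription factor downstream of ERK, had 2450 and 1606 normalized counts for conv-dSVA_D, 1684 and 2036 for conv-dSVA_F, 362 and 1045 for conv-dSVA_F&D and 311 for the wild type. It followed the same order of lines as Spry4 and did not pass (2.07 ± 0.43, limma, adjusted p = 0.0534). Etv5, from the same subfamily, stood the other way, at 2380 to 4607 in the converted libraries and 5943 in the wild type (-0.78 ± 0.19, adjusted p = 0.0731).

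Imprinted genes, which are expressed from 1 parental copy, included 3 called higher and none called lower. Of 26 tested, 7 (26.9%) lay wholly above and 0 wholly below. Meg3, the maternally expressed noncoding RNA of the Dlk1 cluster, had 515 and 376 normalized counts for conv-dSVA_D, 273 and 322 for conv-dSVA_F, 252 and 518 for conv-dSVA_F&D and 107 for the wild type. It was higher by 1.75 ± 0.35 (limma, adjusted p = 0.0486), and Rian, Mirg and Dlk1 of the same cluster also lay wholly above without passing. Mest, a paternally expressed hydrolase-like gene, had 1879 and 1300 for conv-dSVA_D, 3465 and 3522 for conv-dSVA_F, 669 and 915 for conv-dSVA_F&D and 537 for the wild type (1.59 ± 0.21, limma, adjusted p = 0.0201). Nnat, a paternally expressed membrane protein gene, ranged from 67.8 to 365, against 41.5 in the wild type (2.32 ± 0.38, limma, adjusted p = 0.0312). Without conv-dSVA_D replicate 1 none of the 3 passed, at adjusted p of 0.0719 to 0.134.

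Genes of DNA methylation and its removal lay above the wild type in small steps. Of 13 tested, 8 (61.5%) lay wholly above and 0 below, with a median of 0.32. None was called by limma or edgeR, 5 had an unadjusted p under 0.05, and DESeq2 called 1. Uhrf1, which brings the maintenance methyltransferase to DNA, had 14189 to 18588 normalized counts in the converted libraries and 12049 in the wild type (0.46 ± 0.13, limma, adjusted p = 0.11). Tet1, a methylcytosine dioxygenase, had 6738 to 11453 against 6048 (0.53 ± 0.20, adjusted p = 0.189). With the length and GC trend removed, 6 of 13 lay above. Of 24 germline genes that DNA methylation is known to repress, 9 lay wholly below, among them Dazl, a germ cell RNA-binding protein gene, with 809 to 2217 in the converted libraries and 3391 in the wild type (-1.49 ± 0.39, adjusted p = 0.0878). After the trend was removed 5 of the 24 did.

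Most genes of pluripotency lay near the wild type. Of 19 naive pluripotency genes 2 (10.5%) lay wholly above and 5 (26.3%) wholly below, against 18.8% and 19.0% of all genes tested. With the trend removed 1 and 0 of the 19 did. None of the 19 was called by limma or edgeR, 5 had an unadjusted p under 0.05 and DESeq2 called 1. Over all 15240 genes, 2849 had such a p and DESeq2 called 804. Pou5f1, the core pluripotency factor OCT4, had 18394 to 22312 normalized counts in the converted libraries and 24255 in the wild type (-0.24 ± 0.14, limma, adjusted p = 0.415). Utf1, a chromatin factor of undifferentiated cells, had 980 to 1900 against 515 (1.23 ± 0.28, adjusted p = 0.0654).

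Limma called no gene of the stress and cell cycle lists of p53 and of the G2 and M phase. Of 17 genes of the p53 list, 6 (35.3%) lay wholly above and 1 (5.88%) below, against 18.8% and 19.0% of all genes tested. None was called by limma or edgeR, 5 had an unadjusted p under 0.05, and DESeq2 called 2. Trp53 itself, which encodes p53, had 3820 to 6014 normalized counts in the converted libraries and 3005 in the wild type (0.70 ± 0.16, limma, adjusted p = 0.0688). The p53 targets Cdkn1a and Mdm2 had libraries on both sides. Of 20 genes of the G2 and M phase, 4 lay above and 2 below, and 11 and 1 did with the trend removed. Of these 20, 4 had an unadjusted p under 0.05, edgeR called 0 and DESeq2 1. Over all 15240 genes, 2849 had such a p, edgeR called 305 and DESeq2 804. Foxm1, the transcription factor that drives many such genes and that stood on no list, had 1726 and 1577 for conv-dSVA_D, 1527 and 1574 for conv-dSVA_F, 1318 and 1124 for conv-dSVA_F&D and 621 for the wild type. It was higher by 1.23 ± 0.14 (limma, adjusted p = 0.0183, and 0.0726 without conv-dSVA_D replicate 1).

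Foxm1 lies on chromosome 6, which with chromosome 8 held much of what was called higher. These chromosomes carried 10.1% of the tested genes and 44 of the 95 genes called higher (46.3%), against 2 of the 80 called lower. On chromosome 8, 27.4% of genes lay wholly above the wild type and 5.45% wholly below. The median difference of chromosome 8, relative to all protein-coding genes, was 0.07 and 0.24 for conv-dSVA_D, 0.63 and 0.44 for conv-dSVA_F, and 0.01 and -0.01 for conv-dSVA_F&D. The shift was thus largest in conv-dSVA_F and near 0 in conv-dSVA_F&D.

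Sall1, Zfhx3, E2f4, Edc4 and Slc7a5 lie on chromosome 8, and Gprc5a, Foxm1, Mest, Ptms and Tead4 on chromosome 6. E2f4, a cell cycle repressor of the E2F family, had 2121 and 2094 normalized counts for conv-dSVA_D, 2289 and 2578 for conv-dSVA_F, 1864 and 1818 for conv-dSVA_F&D and 1007 for the wild type (1.07 ± 0.13, limma, adjusted p = 0.0183, and 0.0726 without conv-dSVA_D replicate 1). In all 6 libraries it exceeded its chromosome's median. With the medians of all chromosomes set equal, 174 genes were called, 138 of them among the 175. Without chromosomes 6, 8, 18 and Y, 111 genes were called, 42 higher and 69 lower, so 37.8% of the calls were higher against 54.3% with them. Chromosome 18, which holds Spry4, had a median of 0.51 in conv-dSVA_F&D replicate 2, where Spry4 was the second lowest of the converted libraries. Chromosome Y had only 6 genes in this measure. Its medians were -1.04 and -1.41 for conv-dSVA_D, -0.29 and 0.34 for conv-dSVA_F, and 0.93 and 0.78 for conv-dSVA_F&D.

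**Figure D5:**
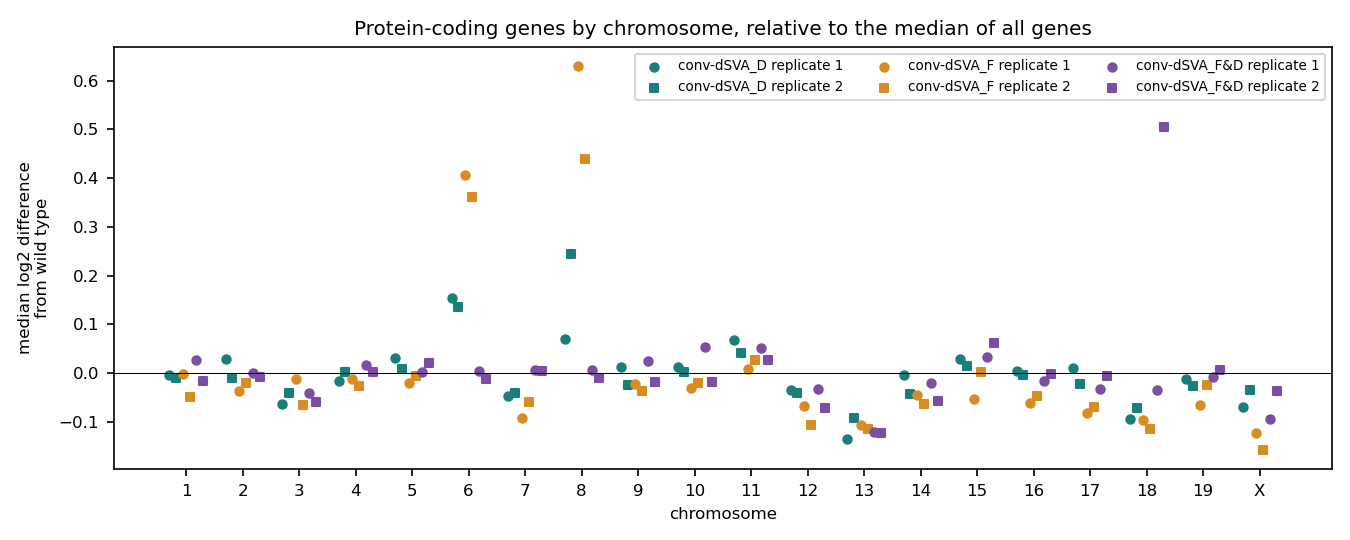
Median log2 difference from the wild type of protein-coding genes on each chromosome except Y (x axis), less the overall median of such genes, 1 point per converted library. Chromosome 8 stands at 0.63 and 0.44 in conv-dSVA_F, and chromosome 18 at 0.51 in 1 conv-dSVA_F&D library.

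Some called genes were graded, with conv-dSVA_F&D nearest to the wild type. Cbr3, a carbonyl reductase gene, had 151 and 229 normalized counts for conv-dSVA_D, 240 and 211 for conv-dSVA_F, 623 and 580 for conv-dSVA_F&D and 926 for the wild type. Rdm1, a gene linked to DNA repair, had 561 and 644 for conv-dSVA_D, 620 and 675 for conv-dSVA_F, 1201 and 1114 for conv-dSVA_F&D and 1733 for the wild type. For Cbr3 and Rdm1 the 4 libraries of conv-dSVA_D and conv-dSVA_F overlapped, both conv-dSVA_F&D libraries lay above them and none reached the wild type. The differences from the wild type were -1.66 ± 0.25 and -1.18 ± 0.15 (limma, adjusted p = 0.031 and 0.0201, and both 0.0737 without conv-dSVA_D replicate 1). In Echdc2 the conv-dSVA_F&D libraries were likewise the nearest to the wild type. Ooep, a component of the subcortical maternal complex, had 2815 and 3434 for conv-dSVA_D, 2422 and 2575 for conv-dSVA_F, 5137 and 5025 for conv-dSVA_F&D and 6175 for the wild type. Here conv-dSVA_F was the lowest line and did not overlap conv-dSVA_D. The difference was -0.86 ± 0.13 (limma, adjusted p = 0.0312, and 0.088 without conv-dSVA_D replicate 1), a call that did not hold with the length and GC trend removed.

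Across all tested genes, a moderated F test in limma called 850 (5.58%) different among the 3 converted lines. Of the genes wholly above the wild type 105 (3.67%) were among them, and of those wholly below 110 (3.80%). For Tpt1, A4galt and Rpl10l, which were called lower, the F test missed its threshold, at adjusted p of 0.0974, 0.313 and 0.111. Tpt1, an abundant growth-related protein gene, had 6380 and 6368 normalized counts for conv-dSVA_D, 7489 to 8719 in the 4 other converted libraries and 14360 in the wild type (-0.93 ± 0.12, limma, adjusted p = 0.0201). A4galt, a glycosyltransferase gene of globoside synthesis, had 699 to 1080 against 2141 (-1.29 ± 0.20, adjusted p = 0.0312), and Rpl10l, a ribosomal protein retrogene, 564 to 935 against 1719 (-1.17 ± 0.16, adjusted p = 0.0235). In Rpl10l both conv-dSVA_F&D libraries, at 664 and 564, lay below the other converted libraries. Without conv-dSVA_D replicate 1 the adjusted p of the 3 differences from the wild type was 0.0794, 0.0964 and 0.0858.

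Genes that silence retrotransposons, the class of elements to which SVA belongs, lay above the wild type more often than below it. Of 19 tested, 8 (42.1%) lay wholly above and 1 (5.26%) wholly below, with a median of 0.14. With the length and GC trend removed, 8 (44.4%) and 3 (16.7%) of 18 did, against 19.5% and 13.1% of all genes with an annotated length. None was called by limma, edgeR or DESeq2, and 4 had an unadjusted p under 0.05, as did 2849 of all 15240 genes. Daxx, which helps to load histone H3.3 on repeats, had 2140 to 2542 normalized counts in the converted libraries and 1699 in the wild type (0.49 ± 0.13, limma, adjusted p = 0.0976). Trim28, the corepressor of KRAB zinc-finger proteins, had converted libraries on both sides. Of 17 genes of interferon and RNA sensing, 6 (35.3%) lay above and 1 (5.88%) below, and 3 (18.8%) and 1 (6.25%) of 16 did with the trend removed.

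Metabolic and lineage lists held few called genes. Of 21 cholesterol synthesis genes 6 (28.6%) lay wholly above and 2 (9.52%) below, and Hmgcs1 was called lower. Over all genes tested, 18.8% lay wholly above and 19.0% wholly below. Hmgcs1, an early enzyme of the pathway, had 2883 and 2762 normalized counts for conv-dSVA_D, 2824 and 3143 for conv-dSVA_F, 4944 and 5036 for conv-dSVA_F&D and 5374 for the wild type (-0.63 ± 0.12, limma, adjusted p = 0.043, and 0.0853 to 0.116 without any 1 library of conv-dSVA_D or conv-dSVA_F). Both conv-dSVA_F&D libraries lay close to the wild type, and the other 4 lay well below it. Of 26 genes of glycolysis and hypoxia 3 (11.5%) lay above and 7 (26.9%) below, and 1 and 3 of 25 did with the length and GC trend removed. Limma's F test called 11 of the 26 different among the converted lines. Of 11 trophoblast genes 3 (27.3%) lay above and 0 below. Among them Tead4, a transcription factor of the trophectoderm, had 975 to 1495 in the converted libraries and 706 in the wild type and was called higher (0.83 ± 0.14, limma, adjusted p = 0.0326). Tead4 lost the call without any 1 library of conv-dSVA_D or conv-dSVA_F, at adjusted p of 0.0729 to 0.106, and also with chromosome medians set equal (0.0573) or the length and GC trend removed (0.0889). Of 18 dystonia-related genes other than Taf1, 1 (5.56%) lay above and 1 (5.56%) below. The 1 above was Kmt2b, a histone methyltransferase gene, with 1533 to 2811 in the converted libraries and 1189 in the wild type (0.77 ± 0.19, adjusted p = 0.0745).

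Markers of other cell types were checked in the same libraries. Of 10 tested fibroblast and feeder markers, 5 lay wholly below the wild type and none above, with a median of -1.18. The filter used the mean of all 7 libraries, so a gene with a converted mean under 10 passed only through the wild type. Col1a2 and Col5a2, with converted means of 2.90 and 8.55, were such genes and could not lie wholly above it. The filter thus set part of these counts in advance. None was called by limma, 5 had an unadjusted p under 0.05, and edgeR and DESeq2 called 2 each. Postn, a matrix protein of fibroblasts, was at 0 in all 6 converted libraries and at 57.9 normalized counts, or 53 reads, in the wild type, which makes it at least 13.8-fold lower against the floor of 3 reads in 1 library. Col1a2, a collagen gene, had 0 to 8.36 in the converted libraries and 96.0 in the wild type, and Acta2, a smooth muscle actin gene, 4.18 to 115 and 299. Thbs1, Tnc and Lox are matrix genes of stromal cells that no list held and were chosen after their values were seen. They showed the same order. Because of that choice, this order and the p of Thbs1 only describe these genes and add no support to the list. Thbs1 had 3.27 to 27.4 in the converted libraries and 298 in the wild type (-4.71 ± 0.75, limma, adjusted p = 0.0312, and 0.0889 without conv-dSVA_D replicate 1). Tnc had 0 to 1.63 and 134, and Lox 0 to 19.5 and 118. Tnc and Lox also passed the filter only through the wild type.

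The whole list of 15 fibroblast and feeder markers had 9 to 13 members above 0 in the converted libraries and 13 in the wild type. Its summed level was 12964 to 30728 in the converted libraries and 17097 in the wild type, most of it Fn1 and Vim, which stem cell cultures also express. The wild type thus lay within the converted range for the whole list. Without Fn1 and Vim, a choice made after the values were seen, the 13 other markers summed to 172 to 481 in the converted libraries. They summed to 1063 in the wild type. Of the 10 tested markers of the whole list, 5 had libraries on both sides of the wild type, and the highest difference was 0.38. Lum was at 0 in every library and Dcn was at 0 in the wild type. The part of such cells in the differences of other genes was not tested. Neuronal and striatal markers summed to 1426 to 2537 in the converted libraries and 1916 in the wild type, and of 9 tested 1 lay above and 1 below.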

How the data were processed

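The deposited table held normalized counts, a signal the authors made by dividing gene counts by 1 size factor per library. Per the submitters' processing notes, tools included STAR 2.7.3, Trimmomatic 0.36, featureCounts 1.6.3, DESeq2, Picard 2.18.20 and deepTools 3.1.0, with the build mm10. The gene models and the strand option used are not given in the sources used here. Per the labels' protocols, RNA was extracted with RNeasy and made into TruSeq Stranded Total RNA Gold libraries. Dividing each column by its smallest step gave back whole reads (tolerance 0.1 read) for 100% of positive values. Of 54456 genes, 93.1% matched GENCODE M21, which gave positions, exonic lengths and GC content. RefSeq supplied 1281 further positions. Promoter sequences are RefSeq's on GRCm38.p6.

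limma 3.58.1 (R 4.3.3) was fitted with a variance trend to log2 of the normalized count plus 1, over 15240 genes with a mean of at least 10. The model had 1 mean per group, 3 residual and 6.8 prior degrees of freedom, two-sided tests and Benjamini-Hochberg adjustment at 0.05. It was also run on simulated data in which all converted lines shared the same effect and the wild type varied like them. Those data could not test either assumption. A gene counted as wholly above or below when all 6 converted values lay on that side of the wild type, which is a description with no test. edgeR 4.0.16 and DESeq2 1.42.0 on recovered reads were alternatives. The p-values reflect only how these samples vary, part of which may be technical. For the length and GC alternative, natural splines with 4 degrees of freedom each were fitted per converted library over protein-coding genes, and genes outside the range fitted (636 to 21490 bases, 35.8% to 64.4% GC), among them many small RNAs, took the value at its end.

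Named genes were Taf1, up to 12 genes per direction farthest from the wild type by the nearest converted library (mean of at least 100, no predicted or pseudogene names), up to 10 per direction with the smallest p among called genes, and up to 4 members per list with the largest distance. The members, lists and rules were chosen with earlier results of these data known. Other list members named in the text were taken to show a list's range.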

Additional observations from a re-analysis of the deposited data

Results flagged for a closer look

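Of 37 genes named for distance or p, 16 differed among the 3 converted lines by limma's moderated F test, so their distance from the wild type was not the same in each line. The adjusted p was 0.00899 for Taf1, 0.0276 for Spry4, 0.0475 for Slc39a14, 0.00629 for Mest, 0.00941 for Ptms and 0.0285 for Slc7a5. For two-cell-like and Eif1ad genes it was 0.0102 for Eif1ad15, 0.0161 for Zscan4c, 0.0218 for Eif1ad7, 0.00941 for Tmem92 and 0.0228 for Eif1ad8. For other genes below the wild type it was 0.02 for Snora73b, 0.0154 for Rdm1, 0.0121 for Cbr3, 0.0102 for Echdc2 and 0.0104 for Ooep. Of all tested genes 5.58% passed this test. That share is no independent yardstick, since some of the 37 were picked for a small p and both tests use the same residual spread.

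Acap1, a gene of membrane trafficking, had 1 library far from the others. Its level was 162 normalized counts in conv-dSVA_F&D replicate 2 and 87.6 to 115 in the 5 other converted libraries, a gap of 0.627 of the whole range, just past Dixon's 95% limit for 6 samples. Chance gives about 1 such value in 20 groups.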

How the results depend on the processing

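No called gene among those named changed direction under the alternatives run. Among uncalled genes picked by the naming rule, 4 changed sign with the length and GC trend removed, where Dppa5a had a difference of 0.201 (-0.344 without removal), Rif1 0.014 (-0.058), mt-Co1 0.367 (-0.168) and Eif2s3x 0.008 (-0.147). The number of called genes depended on the setting. Against 175 called genes (95 higher, 80 lower), an added count of 5 gave 275 (135 lower), no low-value filter 906 (830 lower, 8.39% higher), omission of chromosomes 6, 8, 18 and Y 111 (42 higher), edgeR 305 (213 lower, 30.2% higher) and DESeq2 804 (403 higher, 401 lower). Removing the length and GC trend gave 44 (27 higher, 17 lower), no variance trend 1 (0 higher, 1 lower), and 1 mean for all 6 converted libraries 0 (0 higher, 0 lower), with 1603 genes at unadjusted p under 0.05. Leaving out 1 library gave 2 to 599 called genes, 0 to 325 higher and 2 to 274 lower. Without both libraries of a line the counts were 1 for conv-dSVA_D (0 higher, 1 lower), 54 for conv-dSVA_F (18 higher, 36 lower) and 1014 for conv-dSVA_F&D (532 higher, 482 lower). The 2896 genes wholly below the wild type became 5482 with no filter and 1929 with the trend removed. Distances of at least 1.5-fold left 314 genes above and 331 below, and 2-fold 93 and 127. The Taf1 difference of -2.23 lost its call with no variance trend (adjusted p = 0.176) and with 1 mean for all 6 (0.329), where the line differences enter the spread. TMM scaling moved the median difference by 0.01. Otherwise the cause was not tested. For named genes, 2369 of the alternative values kept their direction and side of the threshold, 243 lost the call and 174 gained one. No paired analysis was possible because the replicate numbers were given in accession order only.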
